A study of Pinus pinaster with 4 samples.

Results

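The 100 most abundant needle transcripts of maritime pine (Pinus pinaster) were taken from an RNA-Seq table of 17571 rows. The members were chosen by their level: the rows were ordered by the mean of the 4 libraries in counts per 1000000 (CPM), and the 100 highest were kept. Each row is a contig, an assembled transcript sequence of the database SustainPineDB, so a member is a contig and not always a whole gene. The rule left out 4 photosynthesis contigs that would have held places among the 100: the light-harvesting protein Lhca4 (place 46), a psbY protein of photosystem II (place 55), the chloroplastic ATP synthase subunit b' (place 81) and the photosystem I reaction center subunit V (place 92). The order of the members and their mean levels are therefore a description of how they were chosen. CPM values are not divided by contig length, so a long contig takes more reads than a short one at the same number of molecules, and levels were compared between libraries and not between contigs.

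The libraries came from needles of plants of 2 provenances, that is, populations of different geographical origin. Leiria, from Portugal near the coast, was represented by the plants L6 and L7, and Tamrabta, from the Moroccan Atlas at a higher altitude, by the plants T3 and T6. All plants were rooted cuttings, potted at the age of 17 months in pots of 2 L, grown in 1 greenhouse in northern Spain, pruned on every branch before sampling and harvested on the same day at the same hour. Where a pair of values is given for a provenance, they are those of L6 and L7, or of T3 and T6, in that order. There was 1 library for each plant, none of the plants received a treatment that the others lacked, and the study does not say whether plants of a provenance belonged to the same clone. Adult needles hold several cell types, so fewer cells of a type and less RNA per cell cannot be told apart in these values.

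In a conifer needle, as in other leaves, much of the messenger RNA codes for proteins that capture light and fix carbon in the chloroplast. The Calvin cycle fixes CO2 and reduces it with the ATP and NADPH made by the light reactions. Photorespiration, which runs through chloroplast, peroxisome and mitochondrion, recovers carbon that is lost when Rubisco takes up oxygen in place of CO2. A description was held for 9 of the 100 members, all in the rows kept here of the study's array results, which are those with the lowest p between the same provenances and include the sequenced plants. The other 91 members had no description in the sources used here, and they are given by their identifiers. By the words of the descriptions, 6 of the 9 fell into carbon metabolism and 3 did not, among these the glycine decarboxylase, an enzyme of photorespiration.

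The counts recovered from the table totalled 40019608 and 58835449 in the Leiria plants, against 49935290 and 40807468 in the Tamrabta plants. Of the needle markers fixed for the check of the tissue (array rows described as photosystem, chlorophyll a/b, light-harvesting or oxygen-evolving proteins, together with the 4 contigs left out of the members, the ATP synthase subunit among them), 5 had a row, with mean levels of 195 to 1757 CPM, and 4 of these are the left-out contigs. They summed to 8475 and 6342 CPM in the Leiria plants, against 4951 and 3900 CPM in the Tamrabta plants. All 5 were higher in Leiria and limma called 0 of them. For wood and root, the words searched gave 1 array row and 0 rows of the table, so that list could not be read. The RNA of these plants was also hybridized on the arrays that supplied the descriptions, so described contigs had been preselected for a difference.

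The members made up 0.569% of the rows and held between 19.6% and 26.5% of the counts. Their share was 26.5% for L6 and 24.0% for L7, against 21.5% for T3 and 19.6% for T6. The 95% Wilson intervals reached at most 0.015 percentage points to each side. These intervals cover counting error only, since reads without molecular identifiers are not independent molecules. Both Leiria plants were thus above both Tamrabta plants. The mean share was 25.2 ± 1.73% in Leiria and 20.6 ± 1.31% in Tamrabta (SD, n = 2 each), a difference of 4.67 percentage points. With 2 plants against 2, the exact permutation test over libraries gave a two-sided p of 0.33, the smallest it can give, so the difference could not pass a threshold of 0.05 in this design.

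The share also differed between plants of the same provenance. L6 was 2.45 percentage points above L7, and T3 was 1.85 points above T6, while the nearest plants of the 2 provenances, L7 and T3, were 2.52 points apart. The difference between the provenance means was larger than either of the differences within a provenance. Depth did not follow the share: L6 and T6, with the highest and the lowest share, were the libraries with the fewest counts. For a fixed list of members the share does not depend on how the libraries were scaled. The list itself was chosen from the scaled values, and a choice under another scaling was not tried. A list ordered by the mean of log2 values gave a difference of 4.75 points. The summed needle markers had the same order of plants as the share. With 0 members among them, these markers hold no part of that share, and a link with it was not tested.

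**Figure D1:**
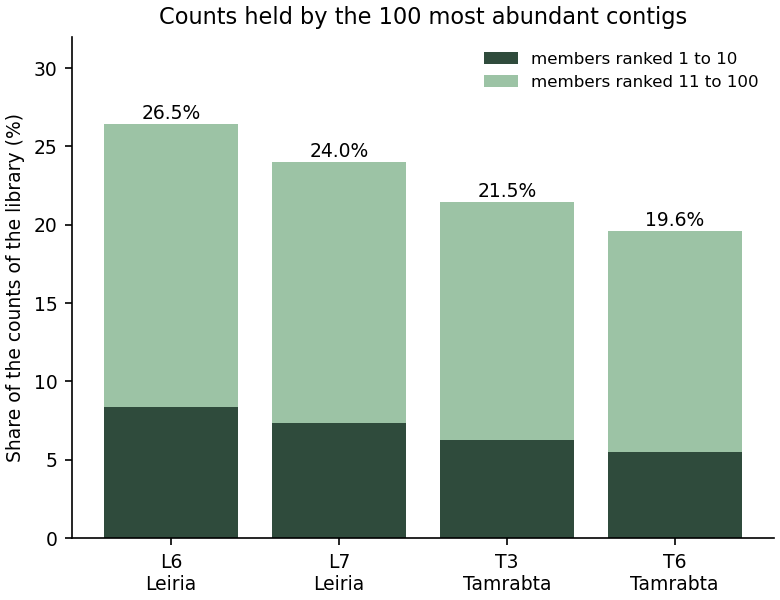
Share of the counts of each library (percent) held by the members, as bars starting at 0 for the plants L6 and L7 (Leiria) and T3 and T6 (Tamrabta), with members ranked 1 to 10 in dark green and 11 to 100 in light green. The bars reach 26.5% and 24.0% in the Leiria plants, against 21.5% and 19.6% in the Tamrabta plants, and both parts of the bar are higher in Leiria.

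The first 10 members held 8.34% and 7.33% in the Leiria plants, against 6.26% and 5.53% in the Tamrabta plants. The members ranked 11 to 100 held 18.1% and 16.7% in the Leiria plants, against 15.2% and 14.1% in the Tamrabta plants. The difference between provenances was thus present in both of these parts, and without the most abundant member it was still 3.93 points. The ranks after the first 100 up to 1000 took 31.6% and 31.1% in the Leiria plants, against 33.4% and 31.4% in the Tamrabta plants, and the rest of the ranks took 41.2% and 44.3% in the Leiria plants, against 44.7% and 48.5% in the Tamrabta plants. The 4 photosynthesis contigs that were left out held 0.743% and 0.607% in the Leiria plants, against 0.485% and 0.420% in the Tamrabta plants. With them put back in their places the difference was 4.82 points.

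The most abundant member, sp_v3.0_unigene127440, had 20166 and 14299 CPM in the Leiria plants, against 9239 and 7662 CPM in the Tamrabta plants. By itself it took 1.83% of the counts of L6 and 1.42% of those of L7, against 0.934% in T3 and 0.845% in T6. Both Leiria values were above both Tamrabta values, and the mean in Leiria was 2.04 times that in Tamrabta. Its logFC, the mean of log2(CPM + 0.5) in Leiria minus that in Tamrabta, was 1.01 ± 0.31 (SE). The adjusted p of 0.274 from limma, with Benjamini-Hochberg adjustment over all rows, did not pass 0.05, while the exact test of edgeR, run on the counts recovered from the table, gave an FDR of 0.0358.

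The second member, sp_v3.0_unigene18089, had 15108 and 13394 CPM in the Leiria plants, against 10724 and 9756 CPM in the Tamrabta plants. Its plants lay close together within each provenance and the provenances did not overlap, with a logFC of 0.48 ± 0.26 (SE, limma adjusted p = 0.479). This sign depended on the scaling, since the logFC was -0.24 after quantile normalization. Only these first 2 members took over 1% of the counts in any library.

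For sp_v3.0_unigene16963, the next in order, there were 9708 and 8137 CPM in the Leiria plants, against 8380 and 5447 CPM in the Tamrabta plants. T3 lay between the Leiria plants, so the provenances overlapped (logFC 0.40 ± 0.32 SE, limma adjusted p = 0.623). The fourth, sp_v3.0_unigene36500, was the member of the first 10 with higher levels in Tamrabta, with 5937 and 5185 CPM in the Leiria plants, against 7751 and 8401 CPM in the Tamrabta plants. Its provenances did not overlap, and the logFC was -0.54 ± 0.24 (SE, limma adjusted p = 0.393). The fifth was the glycine decarboxylase described below. The counts behind the members were high, at no fewer than 15021 in any library, so counting error was small beside the spread between plants.

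The direction of the members was mostly toward Leiria. The logFC was positive for 83 of the 100 members and negative for 17, while it was positive for 51.2% of all rows. The median logFC was 0.48 over the members and 0.01 over all rows. The provenances did not overlap for 70 members, against 49.0% of all rows. Leiria was above Tamrabta in 60 of these, against 25.1% of all rows, and Tamrabta was above Leiria in 10, against 23.9% of all rows. In the other 30 members the provenances overlapped. No test over rows was run, because contigs of 1 library are not independent samples, and these counts describe the 4 plants.

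The split depended on the scaling of the libraries. The deposited columns, scaled by the authors with TMM factors that correct for composition, summed to 1.10 and 1.01 times 1000000 in the Leiria plants, against 0.989 and 0.907 times 1000000 in the Tamrabta plants. With each library summed to 1000000 instead, 72 members were higher in Leiria and 28 in Tamrabta, of which 54 and 13 did not overlap. Leiria was then higher in 37.2% of all rows. That scaling moved the median logFC of all rows to -0.13. The members' median was then 0.46 above it, against 0.47 above it in the deposited values. Dividing each library by a constant shifts the logFC of all but low rows alike. This gap was therefore nearly fixed in advance and says nothing about stability. After quantile normalization, which gives every library the same distribution of values, 57 members were higher in Leiria and 42 in Tamrabta, with 1 equal, and the members' median was 0.14 above that of all rows. Leiria was higher in 44.9% of all rows under quantile normalization. The provenances then did not overlap in 34 members higher in Leiria and 23 higher in Tamrabta. The share of all rows without overlap was not computed under these other scalings, so the counts without overlap have no background beside them.

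**Figure D2:**
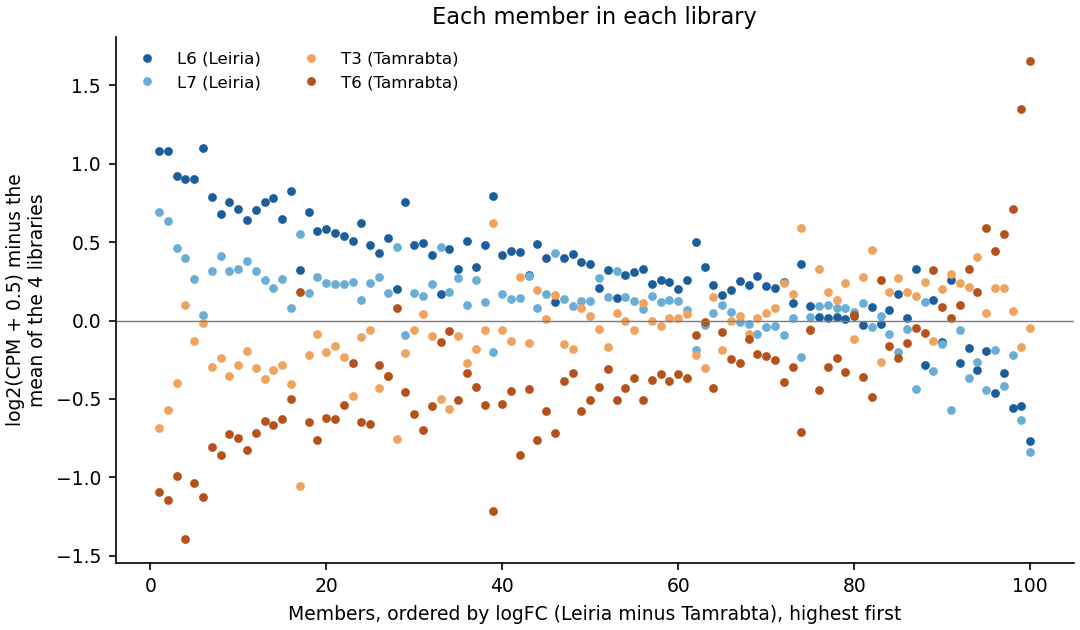
Level of each member in each library, on the log2(CPM + 0.5) scale, as the distance from the mean of the 4 libraries (y axis), with the 100 members ordered by logFC from the highest to the lowest (x axis). Blue points are the Leiria plants (L6 dark, L7 light) and orange points the Tamrabta plants (T3 light, T6 dark); L6 had the highest value in 68 members and T6 the lowest in 75.

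Single plants contributed unequally. L6 had the highest value of the 4 libraries in 68 members and L7 in 7, against T3 in 16 and T6 in 9. The lowest value was in L6 for 5 members and in L7 for 9, against T3 for 11 and T6 for 75. Between the plants L6 and T6 the level was higher in Leiria for 86 members, between L7 and T6 for 84, between L6 and T3 for 76, and between L7 and T3 for 65. The median log2 difference over the members was 0.67 for L6 minus T6 but 0.16 for L7 minus T3. Without T6 the median logFC of the members was 0.27, and 73 of them were higher in Leiria.

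Differences within a provenance ran mostly in 1 direction as well. Among the members, L6 was above L7 in 82 and T3 was above T6 in 81, and both held in 70. Over all rows these shares were 48.3%, 50.02% and 29.1%. The values of all 4 plants followed the order L6, L7, T3, T6 from high to low in 51 members, and in 9.24% of all rows. This order was noticed in the data and not fixed earlier. With each library summed to 1000000, L6 was above L7 in 67 members (33.1% of all rows) and T3 above T6 in 75 (39.7% of all rows). After quantile normalization these counts were 42 (50.2% of all rows) and 65 (54.2% of all rows).

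The size of the spread within a provenance was measured as the absolute log2 difference between its plants. Its median over the members was 0.26 in Leiria and 0.41 in Tamrabta. Over all rows it was 0.21 in Leiria and 0.31 in Tamrabta, and over the ranks after the first 100 up to 1000 it was 0.18 in Leiria and 0.35 in Tamrabta. The Tamrabta plants were farther apart than the Leiria plants in 74 of the members and in 62.3% of all rows. The median absolute logFC between the provenances was 0.57 over the members and 0.27 over all rows. The absolute logFC of a contig was larger than both of its spreads within a provenance in 55 members, and in 35.3% of all rows.

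**Figure D3:**
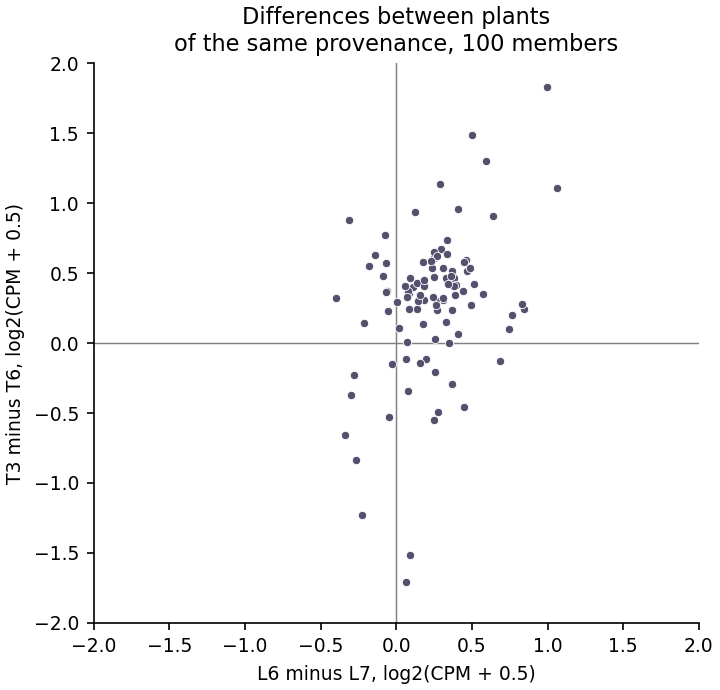
Difference between plants of the same provenance for each of the 100 members, on the log2(CPM + 0.5) scale, with L6 minus L7 (Leiria) on the x axis and T3 minus T6 (Tamrabta) on the y axis. Of the points, 70 lie in the upper right, where L6 is above L7 and T3 above T6, and the vertical scatter is wider than the horizontal, with medians of the absolute difference of 0.26 in Leiria and 0.41 in Tamrabta.

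The pattern differed with abundance. The share of contigs with a positive logFC was 90% in ranks 1 to 10, 82.2% in ranks 11 to 100, 67% in the next 100, 58.5% from there to rank 1000 and 50.6% below. L6 was above L7 in 90%, 81.1%, 71%, 64% and 47.2% of the same classes, and T3 was above T6 in 90%, 80%, 76%, 69.4% and 48.7%. The median logFC was 0.75, 0.47, 0.20, 0.07 and 0.005 in these classes. The comparison between provenances and those within a provenance thus went down the ranks together. These are shares of contigs in the same 4 libraries, and they share the scaling of each library.

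**Figure D4:**
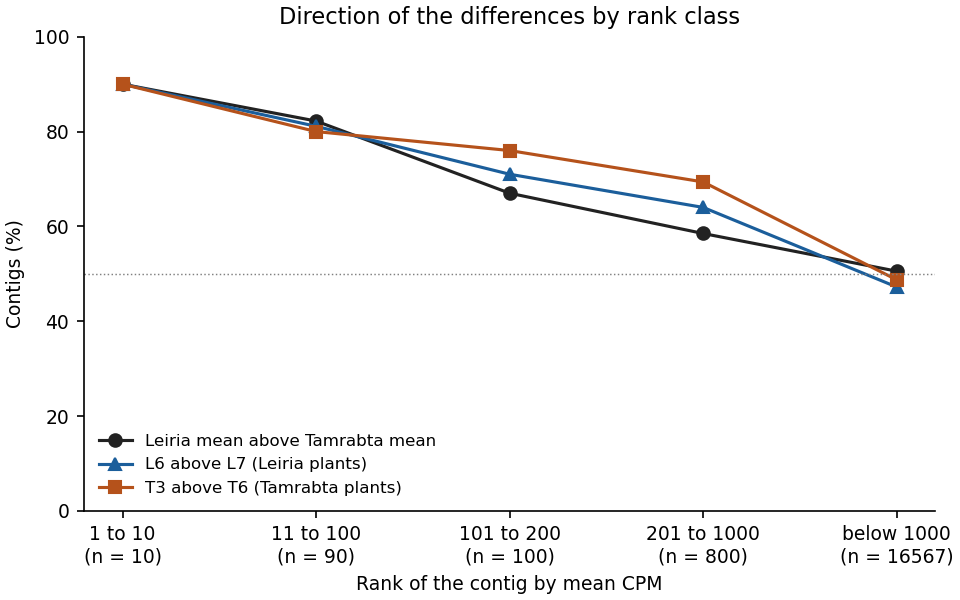
Percentage of contigs in 5 classes of rank by mean CPM (x axis, with the number of contigs) for which the Leiria mean of log2(CPM + 0.5) was above that of Tamrabta (black circles), L6 was above L7 (blue triangles) and T3 was above T6 (orange squares), with a dotted line at 50%. All 3 lines start at 90% in ranks 1 to 10 and end between 47.2% and 50.6% below rank 1000.

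With the study's thresholds, an adjusted p below 0.05 together with a logFC beyond 1 in either direction, limma called 0 of the 100 members, and it called 0.154% of all rows. The smallest adjusted p of a member was 0.123. At an unadjusted p under 0.05 there were 28 members, 25 higher in Leiria and 3 higher in Tamrabta, against 14.7% of all rows. The edgeR exact test, which the study used, called 11 members (5.99% of all rows) when rerun here on the recovered counts. Over all rows this rerun called more than the study reported. DESeq2 called 10 members (6.19% of all rows), while the quasi-likelihood test of edgeR called 0 (0.0114% of all rows). All 10 members called by DESeq2 were among the 11 of the exact test. Of the 11, 9 were higher in Leiria and 2 in Tamrabta, beside 616 and 437 of the 1053 rows that the exact test called in all. The provenances did not overlap in any of the 11, nor in 1021 of those 1053 rows, so non-overlap was general among such calls. Members such as sp_v3.0_unigene127011 and sp_v3.0_unigene17726 reached the 100 only through the provenance where they were high. These counts are therefore not independent of the choice of members. Besides the contigs described by name here, 6 with no description were called by the exact test, all higher in Leiria, with a logFC from 1.02 to 1.39.

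The largest logFC among the members belonged to sp_v3.0_unigene21382, with 5359 and 4107 CPM in the Leiria plants, against 1581 and 1192 CPM in the Tamrabta plants. The lower Leiria plant was thus far above the higher Tamrabta plant, and the ratio of the provenance means was 3.41. The logFC was 1.77 ± 0.27 (SE, limma adjusted p = 0.123, exact test FDR 1.42e-05). The next, sp_v3.0_unigene127011, had 3160 and 2312 CPM in the Leiria plants, against 1006 and 674 CPM in the Tamrabta plants, with a logFC of 1.71 ± 0.30 (SE, limma adjusted p = 0.142, exact test FDR 9.08e-05). The Tamrabta values of sp_v3.0_unigene127011 lay below the last member's mean of 1011 CPM, so Leiria made it a member. Both contigs also had their higher Leiria value in L6 and their lower Tamrabta value in T6. The files and the sources used here give no description for either.

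In the other direction, sp_v3.0_unigene145510 had 1025 and 979 CPM in the Leiria plants, against 1690 and 5511 CPM in the Tamrabta plants. The Leiria plants were nearly alike, and T6 was far above T3. The logFC was -1.61 ± 0.60 (SE, limma adjusted p = 0.344, exact test FDR 0.00308). The contig sp_v3.0_unigene17726 had the same shape, with 646 and 607 CPM in the Leiria plants, against 837 and 2394 CPM in the Tamrabta plants (logFC -1.18 ± 0.54 SE, limma adjusted p = 0.411, exact test FDR 0.0348). In both, T3 lay closer to L6 and L7 than T6 did, and these were the members with a logFC under -1. For sp_v3.0_unigene17726, L6, L7 and T3 lay below the last member's mean of 1011 CPM, so T6 made it a member. Without T6 the logFC was -0.75 for sp_v3.0_unigene145510 and -0.42 for sp_v3.0_unigene17726, and without T3 it was -2.46 and -1.93, so both places under -1 rested on T6.

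The member with the widest spread in Tamrabta was sp_v3.0_unigene18484, with 1988 and 995 CPM in the Leiria plants, against 1759 and 494 CPM in the Tamrabta plants. The plants differed by 1.00 on the log2 scale in Leiria and by 1.83 in Tamrabta, and the provenances overlapped (logFC 0.59 ± 0.72 SE, limma adjusted p = 0.746). Its sign turned without T6, to -0.32. A spread of more than 1 on the log2 scale occurred in 1 member in Leiria, a carbonic anhydrase, and in 8 members in Tamrabta.

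Of the 9 described members, the logFC was above 0 for 8 and below 0 for 1. The provenances did not overlap for 7 of them, all higher in Leiria, against 25.1% of all rows with Leiria higher and no overlap. The same held for 53 of the 91 members with no description, so this was common among the members. Among the 7 was the cytokinin-repressed protein, which was a member only through its Leiria values. Limma called 0, with 3 at an unadjusted p under 0.05, against 14.7% of all rows. The edgeR exact test and DESeq2 also called 0 of them. Of the 6 in carbon metabolism, 5 were among those higher in Leiria with no overlap, beside the same 25.1% of all rows. The median logFC of the 9 described members was 0.58, beside 0.48 for the members with no description. Since they had been preselected on arrays that included these plants, their direction is not independent evidence.

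Among enzymes that work in carbon fixation, the carbonic anhydrase (sp_v3.0_unigene16974), which interconverts CO2 and bicarbonate, had 4777 and 2283 CPM in the Leiria plants, against 2206 and 1022 CPM in the Tamrabta plants. L7 and T3 were nearly equal, so the provenances were only just apart. The logFC was 1.14 ± 0.55 (SE, limma adjusted p = 0.432), and the differences within Leiria (1.06 on the log2 scale) and within Tamrabta (1.11) were about as large. It was 0.60 without L6, 0.58 without T6, and 1.67 to 1.69 without L7 or T3. The glyceraldehyde-3-phosphate dehydrogenase subunit B (sp_v3.0_unigene17047), part of the chloroplast enzyme that reduces the first products of fixation, had 2823 and 2807 CPM in the Leiria plants, against 2088 and 1704 CPM in the Tamrabta plants. Here the Leiria plants were almost identical and both were above the Tamrabta plants (logFC 0.58 ± 0.21 SE, limma adjusted p = 0.335). A phosphoglycerate kinase (sp_v3.0_unigene10495), an enzyme of glycolysis with a form in the Calvin cycle, had 1813 and 1714 CPM in the Leiria plants, against 1263 and 1069 CPM in the Tamrabta plants (logFC 0.60 ± 0.19 SE, limma adjusted p = 0.290).

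The chloroplastic NADP malate dehydrogenase (sp_v3.0_unigene10448) exports reducing power from the chloroplast as malate. It had 2516 and 1761 CPM in the Leiria plants, against 1341 and 998 CPM in the Tamrabta plants. The provenances did not overlap, and the mean was 2139 ± 534 CPM in Leiria and 1169 ± 242 CPM in Tamrabta (SD, n = 2 each; logFC 0.86 ± 0.29 SE, limma adjusted p = 0.297). The granule-bound starch synthase (sp_v3.0_unigene2614), which makes amylose in starch granules, was the described member with the negative logFC. It had 2401 and 1759 CPM in the Leiria plants, against 2002 and 2742 CPM in the Tamrabta plants, so that the provenances overlapped (logFC -0.19 ± 0.28 SE, limma adjusted p = 0.797). Its sign turned when L7 or T6 was left out.

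For photorespiration, the P protein of the mitochondrial glycine decarboxylase complex (sp_v3.0_unigene23601), which releases CO2 from glycine, had 6517 and 6793 CPM in the Leiria plants, against 7039 and 5441 CPM in the Tamrabta plants. Its 4 plants overlapped, with a logFC of 0.10 ± 0.26 (SE, limma adjusted p = 0.882), which turned negative with each library summed to 1000000 and without T6. The peroxisomal serine-glyoxylate aminotransferase (sp_v3.0_unigene9863), which makes glycine from glyoxylate, had 2236 and 2129 CPM in the Leiria plants, against 2012 and 2004 CPM in the Tamrabta plants. This was among the evenest patterns of the described members, with a logFC of 0.12 ± 0.19 (SE, limma adjusted p = 0.805), negative under both other scalings. A p above the threshold does not show that the levels were equal.

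Outside carbon metabolism, a translationally controlled tumor protein homolog (sp_v3.0_unigene20693), a conserved protein of growing cells, had 1699 and 1922 CPM in the Leiria plants, against 1593 and 1085 CPM in the Tamrabta plants. Both Leiria plants were above both Tamrabta plants, with T3 close to L6 (logFC 0.46 ± 0.26 SE, limma adjusted p = 0.503). A putative cytokinin-repressed protein of Pinus pinaster (sp_v3.0_unigene16947) had 1636 and 1154 CPM in the Leiria plants, against 937 and 334 CPM in the Tamrabta plants. T6 was far below the other plants, and the logFC was 1.30 ± 0.56 (SE, limma adjusted p = 0.387), with 0.55 without T6 and 2.04 without T3. Both Tamrabta values lay below the last member's mean of 1011 CPM, so Leiria made this contig a member and its direction is not independent of the choice.

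**Figure D5:**
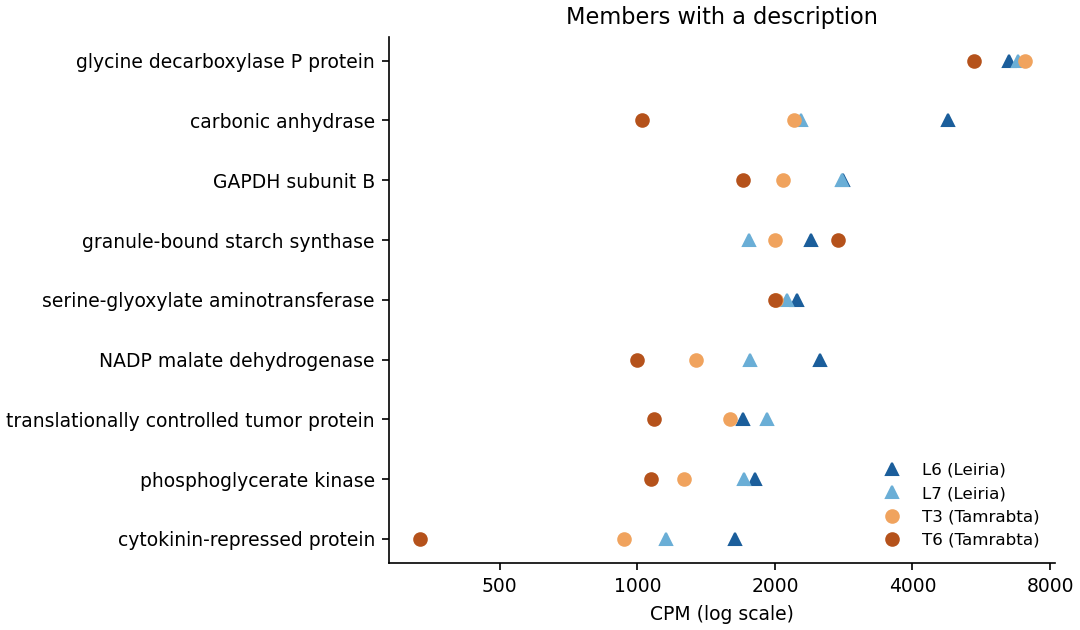
CPM (x axis, log scale) of the 9 members with a description, ordered by mean CPM with the highest at the top, with triangles for the Leiria plants L6 and L7 and circles for the Tamrabta plants T3 and T6. In 7 of the 9 both triangles lie to the right of both circles; the glycine decarboxylase P protein and the granule-bound starch synthase overlap.

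Most members were also among the highest rows of each library, which choosing them by the mean of these 4 libraries favors by construction. Of the 100 highest rows of each library, with the same 4 rows left out, 92 and 94 were members in the Leiria plants, against 88 and 84 in the Tamrabta plants, and 70 members were among the first 100 in all 4. Over the 100 members the order of the levels was closest between L6 and L7 (Spearman's rho 0.92), followed by L7 and T3 (0.77), T3 and T6 (0.75), L6 and T3 (0.73), L7 and T6 (0.63) and L6 and T6 (0.50). These correlations are across contigs that were chosen by their mean over these libraries. The contigs also share contig length between libraries, and no p is given for the correlations. Each row also carried another identifier, beside the sp_v3.0 name used here. This other identifier began with Contig for 88 members and for 66.7% of all rows. It began with AllPine for 11 members and for 4.91% of all rows.

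The limit of 100 cut through closely spaced values. Just inside it stood the cytokinin-repressed protein with a mean of 1015 CPM and sp_v3.0_unigene145418 with 1011 CPM. The last of the 100 had 1354 and 1021 CPM in the Leiria plants, against 1101 and 567 CPM in the Tamrabta plants. Just outside stood sp_v3.0_unigene34614 with a mean of 983 CPM and sp_v3.0_unigene11399 with 977 CPM. Ordering by the lowest of the 4 libraries kept 88 of the members and ordering by the mean of log2 values kept 98. With these lists 81 and 84 contigs had a positive logFC, and the provenances did not overlap in 66 and 69.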

How the data were processed

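RNA-Seq of needles was available for 4 plants, 2 of each provenance. The paired reads were trimmed (SeqTrimNext) and aligned with Bowtie2 to contigs of SustainPineDB, where only concordant pairs were counted. The authors then deposited 1 signal per contig and library, the CPM of edgeR after TMM normalization. The versions, the strand and the treatment of pairs mapping more than once were not given in the sources used here. Similar contigs could therefore share counts.

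Within a column all values were multiples of the value of 1 read, and 100% of the 70284 values gave whole counts within 0.01 counts. Shares are of the counts in these rows. The libraries of a provenance were labeled as separate replicates. Their counts differed by more than sampling noise (chi-square per degree of freedom 85.1 in Leiria, 184 in Tamrabta), which at this depth does not by itself show separate plants. Of the sp_v3.0 identifiers, 10 stood on 2 rows each, none of them a member. Whether plants of a provenance are of 1 clone is not known, so p-values measure only the spread between these plants.

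Limma 3.58.1 (R 4.3.3) was fitted to log2(CPM + 0.5) over all 17571 rows with an intensity trend, no covariate and Benjamini-Hochberg adjustment. A fold change on this scale understates low genes, which the members are not. Count tests (edgeR 4.0.16 exact and quasi-likelihood, DESeq2 1.42.0) were alternatives on the recovered counts, as were other pseudocounts, a mean CPM filter, other priors, 2 other scalings, the replicate block, each library left out and 2 other rankings. L7 against T3 alone was added after the data were seen. The fits were tested on simulated data. Named contigs were the described members, the 5 most abundant, the 2 highest and 2 lowest logFC, the 2 widest spreads in each provenance and the rows at the limit. Words were searched in the first 120 characters of the descriptions. The members and lists were chosen with earlier results of these data known.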

Additional observations from a re-analysis of the deposited data

How the results depend on the processing

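The number of members called was 0 with limma under every pseudocount, filter, prior, scaling and ranking tried and without a threshold on logFC, as with the quasi-likelihood test of edgeR; the exact test called 11 and DESeq2 10, and the cause was not tested. With 1 library left out it was 0 to 0, but there the other provenance alone gives the spread and the lone plant is assumed to vary like it, so this says nothing about stability. Over all rows limma called 27 (0 without L6, L7 or T3, 32 without T6), the exact test 1053, DESeq2 1088 and the quasi-likelihood test 2. With the replicate block limma called 0 members, with 49 at an unadjusted p under 0.05; the numbers pair no plants by the labels, and the correlation of L6 minus L7 with T3 minus T6 was 0.20 over all rows and 0.37 over the members. The median logFC of the members was 0.096 after quantile normalization, which equalizes the distributions by construction, 0.16 for L7 against T3 alone, and 0.27 to 0.61 with 1 library left out, lowest without T6. The share difference was 2.52 points for L7 against T3 alone and 3.45 to 5.90 with 1 library left out, and the median spread within Leiria was 0.15 after quantile normalization. The count of members higher in Leiria lay between 73 and 87 with 1 library left out. Signs turned in 8 of 285 values of 19 named members: sp_v3.0_unigene23601 (-0.046 with libraries summed to 1000000, and -0.081 without T6 to 0.29 without T3), sp_v3.0_unigene2614 (0.035 without L7, and -0.42 without T3 to 0.038 without T6), sp_v3.0_unigene9863 (-0.031 with libraries summed to 1000000, -0.32 after quantile normalization), sp_v3.0_unigene18089 (-0.24 after quantile normalization) and sp_v3.0_unigene18484 (-0.32 without T6 to 1.51 without T3). Each member had at least 15021 counts in every library.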

Other observations

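A group of 38 contigs was among the first 100 of at least 1 library without being a member, 34 of them in a single library. They are given here as values, in the order L6, L7 and T3, T6, and named after their values were seen. The contig sp_v3.0_unigene34614 had 177 and 162 CPM in the Leiria plants, against 3305 and 287 CPM in the Tamrabta plants, so T3 was 11.5 times the next plant. An aminotransferase family protein (sp_v3.0_unigene36796) had 125 and 245 CPM in the Leiria plants, against 351 and 1183 CPM in the Tamrabta plants (logFC -1.88 ± 0.69 SE, limma adjusted p = 0.336). A contig described as pseudotzain (sp_v3.0_unigene3779) had 446 and 405 CPM in the Leiria plants, against 718 and 1539 CPM in the Tamrabta plants. In both, T6 was the plant apart.

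The provenances also did not overlap in the contigs that follow. Their highest plant stood less far above the next, at 1.30 and 1.13 times it. A metallothionein-like protein, of a family of small metal-binding proteins (sp_v3.0_unigene145825), had 379 and 615 CPM in the Leiria plants, against 1157 and 1503 CPM in the Tamrabta plants (logFC -1.45 ± 0.31 SE, limma adjusted p = 0.181). It was among the first 100 of both Tamrabta plants and of neither Leiria plant. The contig sp_v3.0_unigene146559 had 997 and 1129 CPM in the Leiria plants, against 251 and 126 CPM in the Tamrabta plants (logFC 2.57 ± 0.37 SE, limma adjusted p = 0.116). Neither passed the threshold with limma, the only test given for them here, and similar contigs could share counts.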
